A study of Mus musculus with 6 samples.

Results

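Exosomes isolated from fetal bovine serum (FBS) were given to C2C12 cells differentiating in 2% horse serum (HS), and their mRNA was compared with that of C2C12 cells in 2% HS alone. The comparison took every entry of the expression table with a mean of at least 1 FPKM (fragments mapped to a gene, scaled for its length and for sequencing depth) over these 2 libraries, which was 10648 of 20950 entries. Kank3 lay just inside this limit, at 0.963 FPKM without and 1.04 FPKM with exosomes, and Parp11 just outside it, at 0.950 and 1.05 FPKM. C2C12 is an established mouse myoblast line, kept as dividing cells in serum-rich medium and turned into multinucleate myotubes by lowering the serum. The series holds 6 libraries of this line with no genetic change. Growing cells in 10% FBS formed 1 condition, and the differentiating conditions were 2% HS, 2% HS + exosome, 0.2% FBS and 0.2% FBS + exosome. Each had 1 library except 0.2% FBS + exosome, which had 2, named here replicates 1 and 2. The exosomes were added at the amount that 10% FBS contains, and neither the labels nor the methods describe a buffer-only addition to the cultures without exosomes. The question asked of these libraries was how exosomes from serum act on myogenic differentiation, and the 2% HS pair asks it in the other low-serum medium.

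Exosomes are small membrane vesicles that cells release and that carry lipids, proteins and RNA. Cells hold their cholesterol steady through the transcription factor SREBP2 (gene Srebf2), which is released from the endoplasmic reticulum when sterol is scarce and turns on the genes of sterol synthesis. The transcription factor ATF4 is made when amino acids are scarce or when protein folding or mitochondria are disturbed, and it turns on genes for amino acid transport and synthesis, tRNA charging and several secreted hormones. Skeletal muscle is one of the known sources of such hormones, among them FGF21 and GDF15.

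The table holds no counts. Depth was estimated from the spacing of low FPKM values at 38700000 reads for 2% HS and 34000000 for 2% HS + exosome, within the range of 33500000 to 39400000 over all 6 libraries, and the precision of a single value is known only as far as this estimate goes. All 12 myotube markers were among the members, with a median difference of −0.03 and summed levels of 23569 FPKM without and 22860 FPKM with exosomes. None of 9 endothelial markers was a member, 3 of them being listed at 0 in both libraries, and 2 of 11 leukocyte, 3 of 9 adipocyte, 2 of 10 osteoblast and chondrocyte and 1 of 10 neuron and glia markers were members. The summed levels of these 5 marker lists were between 0.764 and 10.2 FPKM in 2% HS and between 0.627 and 8.68 FPKM in 2% HS + exosome. Of the lists nearer to muscle, 9 of 10 myoblast and reserve cell markers were members (2057 FPKM without and 1720 FPKM with exosomes, median −0.09). So were 6 of 9 fibroblast markers (1259 and 1270 FPKM, median 0.10) and 6 of 9 smooth muscle and pericyte markers (3563 and 3002 FPKM, median −0.28). Of the 6 smooth muscle and pericyte members 5 were lower (83.3%, against 58.7% of all members). The part of these lists in the results was not tested. In a bulk library, fewer cells of a type and less RNA per cell cannot be told apart.

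Most genes differed little between the cultures. Differences were taken as log2(FPKM + 1) in 2% HS + exosome minus 2% HS, on which genes at low FPKM show less than their true ratio. The median over the 10648 genes was −0.04, the quartiles lay at −0.15 and 0.08, and 95.4% lay within 0.5 of 0. At any size, 58.7% of the genes were lower and 41.3% higher with exosomes. A difference under −1 was found for 32 genes (0.301%) and one over 1 for 39 genes (0.366%). These counts were 58 and 74 with a pseudocount of 0.1, and 54 and 70 with values below 1 FPKM raised to 1. With a limit of 0.5 these counts were 260 (2.44%) lower and 228 (2.14%) higher. Between replicates 1 and 2 of 0.2% FBS + exosome, which were given the same treatment, 59 genes differed by over 1 and the SD of the differences was 0.255, against 0.247 between the 2% HS libraries. The 71 genes past 1 in 2% HS are therefore described by their values, because 1 library against 1 has no replicate check.

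The groups that stood out were sterol synthesis on the lower side and the amino acid and ATF4 response on the higher side. Together they held 31 of the 71 genes past 1.

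**Figure D1:**
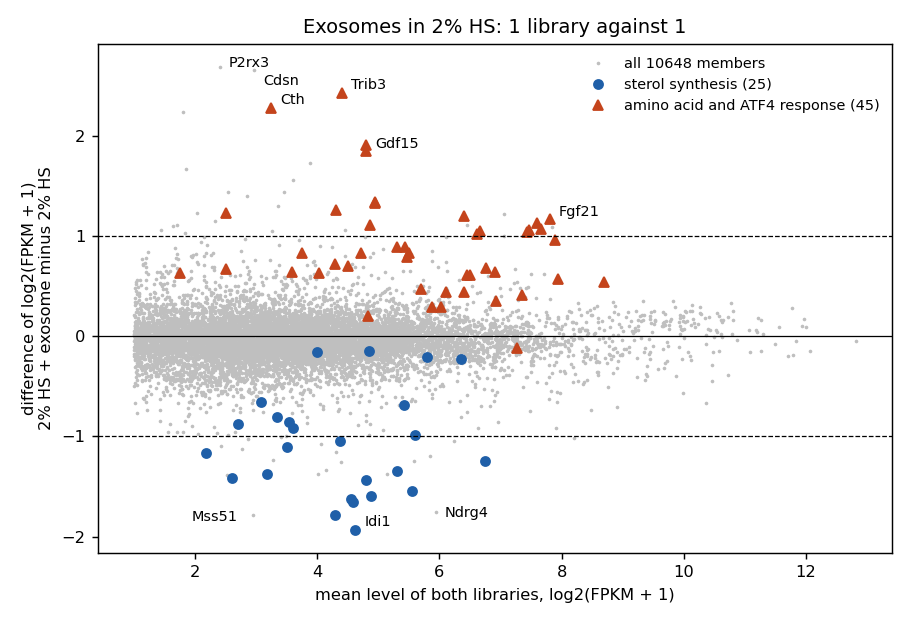
Each point is 1 of the 10648 genes, plotted by its mean level over both 2% HS libraries on the x axis, as log2(FPKM + 1), and by its difference with exosomes on the y axis, with dashed lines at −1 and 1. Blue circles are the 25 sterol synthesis genes, which all lie below 0, and red triangles are the 45 amino acid and ATF4 response genes, of which 44 lie above 0.

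A limma fit over all 6 libraries gave the only test these data allow. Its spread comes from replicates 1 and 2 of 0.2% FBS + exosome (1 residual degree of freedom, 7.457 prior degrees of freedom), and it assumes that the single 2% HS libraries vary in the same way. With Benjamini-Hochberg adjustment over all members, 8 genes (0.0751%) rose and 2 (0.0188%) fell with exosomes in 2% HS at an adjusted p under 0.05. In the same limma fit 529 of the 10648 members had an unadjusted p under 0.05, about the share that this threshold gives when no gene changes. The genes that rose were P2rx3, Cdsn, Trib3, Akr1b7, Cth, Gdf15, Adm2 and Atp2a3, and those that fell were Ndrg4 and Mss51. P2rx3, Akr1b7 and Atp2a3 were under 1 FPKM in 2% HS and were members only through the library where they are high, so that their call supports nothing. Of the 10 calls, 5 rises and both falls are of genes at 1 FPKM or more in both libraries. The calls depended on the processing. Scaling the libraries to the same 75th percentile kept 8 of the 10 calls and lost Mss51 (adjusted p = 0.0916 in limma) and Atp2a3, and limma without its mean-variance trend lost both as well. No gene was called by limma with 1 exosome effect common to both media, where 715 had an unadjusted p under 0.05. None was made either when values below 1 FPKM were raised to 1 (smallest adjusted p = 0.42 in limma) or when low genes were kept (0.683). Raising values made both 0.2% FBS + exosome replicates identical in 130 genes, and without those genes, an alternative chosen after seeing the data, 4 genes rose and 2 fell, all of them among the 10 calls above. With low genes kept, 697 genes had identical replicates, and still no call was made without them (smallest adjusted p = 0.283 in limma).

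Genes of sterol synthesis were lower with exosomes throughout the pathway. Of 26 listed genes 25 were members. All 25 were lower, against 58.7% of all members, 21 of them by over 0.5 and 14 by over 1 (56.0%, against 0.301% of all members), with a median difference of −1.11. Their summed level was 924 FPKM in 2% HS and 458 FPKM in 2% HS + exosome. No gene of the list passed the limma test, and the list had been noticed in these data before.

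The early steps of the pathway make isoprenoid units from acetyl-CoA. Hmgcs1, which makes HMG-CoA, stood at 47.1 FPKM in 10% FBS, 56.0 in 2% HS, 21.5 in 2% HS + exosome, 105 in 0.2% FBS, and 55.8 and 30.3 in replicates 1 and 2 of 0.2% FBS + exosome. It was lowest in 2% HS + exosome among the 6 libraries and highest in 0.2% FBS, with a difference of −1.34 (SE 0.35) in 2% HS. Idi1, the isomerase that interconverts the isoprenoid units, had the most negative difference of all 10648 genes. It lies at chr13:8885501-8892451 on the plus strand of mm10 and stood at 21.5, 38.0, 9.23, 59.97, 23.9 and 11.4 FPKM, so that its level with exosomes was 0.243 of that without. The estimated reads behind the 2% HS values were 4159 and 888, and the difference was −1.93 (SE 0.39, adjusted p = 0.214 in limma). Fdps, which joins the units to farnesyl diphosphate, stood at 149 FPKM without and 62.2 FPKM with exosomes (−1.25). Acat2, a thiolase that makes acetoacetyl-CoA, was at −1.11, and Mvd, Mvk and Pmvk lay between −0.66 and −0.91.

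The later steps make and reshape the sterol ring. The lanosterol demethylase gene Cyp51 stood at 20.3 FPKM in 10% FBS, 35.4 in 2% HS, 10.5 in 2% HS + exosome, 58.2 in 0.2% FBS, and 32.2 and 14.7 in the replicates of 0.2% FBS + exosome. Its 2% HS + exosome library was the lowest of the 6, and the difference was −1.66 (SE 0.41, adjusted p = 0.376 in limma). Further members lower by over 1 were Nsdhl (−1.62), Msmo1 (−1.54), Tm7sf2 (−1.41) and Lss (−1.38), and Sqle (−0.99), Hsd17b7 (−0.87), Sc5d (−0.81) and Fdft1 (−0.68) followed. Dhcr7 (−0.15) and Ebp (−0.21), which act on late sterol intermediates, lay near 0 in 2% HS, at 29.1 and 26.2 FPKM for Dhcr7 and 58.7 and 50.6 FPKM for Ebp.

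Control and transport genes of the pathway were divided. Insig1, which holds the SREBP complex in the endoplasmic reticulum, stood at 32.7 FPKM in 10% FBS, 39.5 in 2% HS, 13.9 in 2% HS + exosome, 63.5 in 0.2% FBS, and 46.0 and 33.9 in the replicates of 0.2% FBS + exosome, a difference of −1.44 (SE 0.24). Stard4, a sterol carrier, was at 5.26 and 1.80 FPKM in 2% HS (−1.16). The genes of the factor itself and of its escort differed less, with −0.23 for Srebf2 (87.3 and 74.5 FPKM) and −0.16 for Scap (15.8 and 14.1 FPKM). In all, 23 of the 25 genes had their lowest level of the 6 libraries in 2% HS + exosome, a position that 2939 of the 10644 uniquely named members shared.

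**Figure D2:**
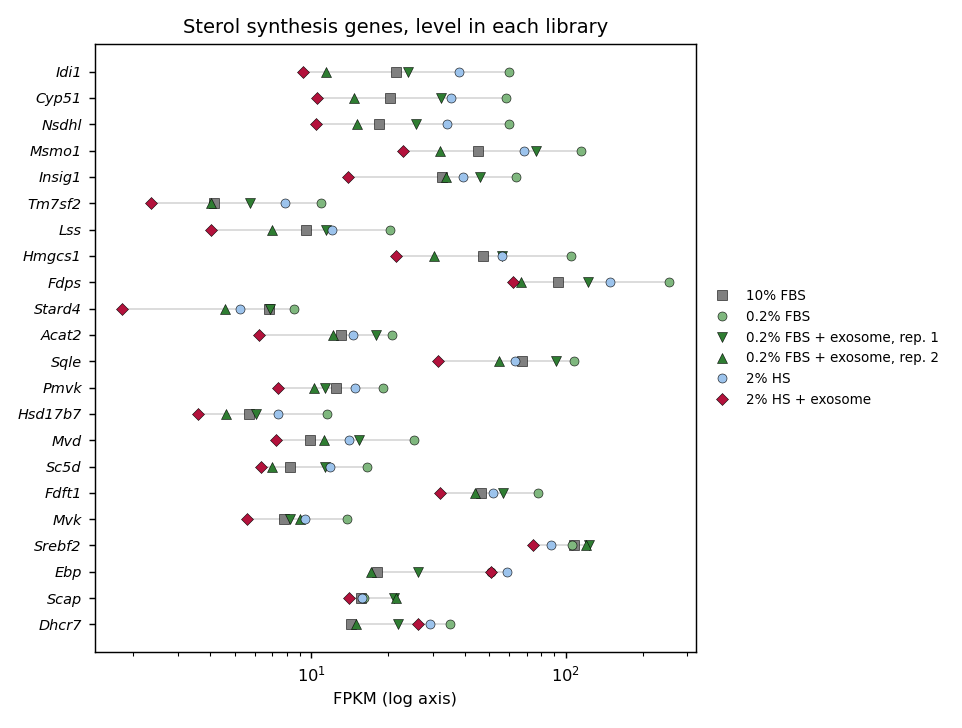
The 22 sterol synthesis genes shown by name are ordered from the most to the least lower with exosomes in 2% HS, with the FPKM of each of the 6 libraries on a log axis. The 2% HS + exosome library (red diamonds) is the lowest for 20 genes, Ebp and Dhcr7 being the exceptions, and Idi1 runs from 9.23 FPKM there to 59.97 FPKM in 0.2% FBS.

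The same genes were also lower with exosomes in 0.2% FBS, a comparison that shares no library with that in 2% HS. For the 25 genes the medians there were −0.68 (replicate 1) and −1.16 (replicate 2), and 23 of the genes were lower in both, against 2990 of the 10644 uniquely named members, of which 5814 were higher in both. The replicates differed by a median of −0.59 over this list, the spread that enters the limma SE of its genes. Msmo1 (−0.58 and −1.81) and Cyp51 (−0.84 and −1.91) differed by over 1 between replicates 1 and 2. None of the 25 genes passed the limma test of the difference between the media, the smallest adjusted p among them being 0.181, for Ebp.

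Fatty acid synthesis, which SREBP1 (gene Srebf1) controls, showed smaller differences on the same side. Of its 15 members 13 were lower (86.7%, against 58.7% of all members), 7 by over 0.5 (46.7%, against 2.44%) and 1 by over 1 (6.67%, against 0.301%), with a median of −0.43. Scd2, a desaturase that makes monounsaturated fatty acids, stood at 349 FPKM in 10% FBS, 396 in 2% HS, 195 in 2% HS + exosome, 566 in 0.2% FBS, and 388 and 352 in the replicates of 0.2% FBS + exosome (−1.02). Scaling the libraries to the same 75th percentile brought Scd2 to −0.986, inside the limit of 1. Fads2 (−0.98), Scd1 (−0.91) and Fasn (−0.74) came next, Srebf1 itself was at −0.54, and Mid1ip1 (0.37) and Fads3 (0.18) were higher. Fads2 stood at 37.3 FPKM without and 18.4 FPKM with exosomes in 2% HS, against 53.8 FPKM without and 54.5 and 53.7 FPKM with them in 0.2% FBS. Its difference between the media was −0.99 (adjusted p = 0.0871 in limma).

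Genes of the amino acid and ATF4 response were higher with exosomes in 2% HS. Of 48 listed genes 45 were members (not Vldlr, Slc7a3 and Cbs), and 44 of these were higher, against 41.3% of all members. The difference was over 0.5 for 36 genes and over 1 for 17 (37.8%, against 0.366% of all members), with a median of 0.83. Their summed level was 2801 FPKM in 2% HS and 4810 FPKM in 2% HS + exosome. The exception was the transporter gene Slc38a2, at 159 and 146 FPKM (−0.12). In 42 of the 45 genes the level in 2% HS + exosome was the highest of the 6 libraries, which held for 1247 of the 10644 uniquely named members. Trib3, Cth, Gdf15 and Adm2 passed the limma test in 2% HS. The list was divided below by what its genes do, a division made after the values had been seen.

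The regulators comprised 9 genes with a median of 0.72. Trib3, a pseudokinase that ATF4 turns on and that restrains it, had the third-largest difference of all genes. It lies at chr2:152337422-152344032 on the minus strand and stood at 3.02 FPKM in 10% FBS, 5.65 in 2% HS, 34.9 in 2% HS + exosome, 7.32 in 0.2% FBS, and 2.71 and 2.97 in the replicates of 0.2% FBS + exosome. The level with exosomes was 6.17 times that without, from an estimated 400 and 2167 reads, and the 5 other libraries lay far below it. The difference was 2.43 (SE 0.19, adjusted p = 0.00298 in limma). Atf4 itself stood at 284, 334, 488, 358, 282 and 277 FPKM (0.54), and its partner Ddit3, also called CHOP, at 28.1, 31.6, 56.9, 26.4, 55.1 and 34.5 FPKM (0.83), the 0.2% FBS + exosome replicate 1 being close to 2% HS + exosome for Ddit3. Atf5 (1.20) and Sesn2 (1.27), an inhibitor of mTORC1 signalling, were the other regulators past 1. Ddit4 (0.20) differed least. Herpud1, a gene of endoplasmic reticulum protein disposal, was at 0.64, and Atf3, a related stress factor kept in another list, at 5.85 and 21.7 FPKM (1.73).

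The hormone and growth factor genes were 4, and all were higher by over 1, with a median of 1.54. Gdf15, which reduces appetite through a receptor in the hindbrain, stood at 4.45 FPKM in 10% FBS, 11.1 in 2% HS, 42.6 in 2% HS + exosome, 11.1 in 0.2% FBS, and 8.69 and 8.43 in the replicates of 0.2% FBS + exosome, a rise of 1.85 (SE 0.18, adjusted p = 0.00946 in limma). Adm2, a peptide of the calcitonin family, stood at 3.90, 10.7, 43.2, 9.65, 3.15 and 2.64 FPKM in these libraries and rose by 1.92 (SE 0.20, adjusted p = 0.0108 in limma). Fgf21, a hormone of fasting and mitochondrial stress, stood at 38.7, 137, 309, 127, 45.0 and 35.5 FPKM, a difference of 1.17 (SE 0.24, adjusted p = 0.216 in limma). Stc2 was at 2.39 and 6.98 FPKM in 2% HS (1.23). For each of the 4 the 2% HS + exosome library was the highest, and for Gdf15, Adm2 and Fgf21 the libraries of 2% HS and 0.2% FBS lay close together below it.

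The enzymes of serine, folate and proline synthesis had a median of 1.02 over 9 genes, all higher by over 0.5. Phgdh, which opens serine synthesis, stood at 67.3 FPKM in 10% FBS, 130.1 in 2% HS, 275 in 2% HS + exosome, 136 in 0.2% FBS, and 66.9 and 61.3 in the replicates of 0.2% FBS + exosome (1.07). Psat1 (0.96) and Psph (1.11), the next enzymes of that route, and the mitochondrial folate enzymes Shmt2 (1.02), Mthfd2 (1.05), Mthfd1l (0.83) and Aldh1l2 (1.34) shared this order of the 2% HS libraries. For proline, Aldh18a1 was at 0.80 and Pycr1 at 0.67. Among 5 other enzymes (median 1.13), Cth, which makes cysteine from cystathionine, stood at 1.52, 2.22, 14.7, 2.48, 1.36 and 0.941 FPKM and rose by 2.29 (SE 0.22, adjusted p = 0.00862 in limma). Asns, asparagine synthetase, stood at 62.2, 121, 265, 126, 47.6 and 43.4 FPKM (1.13), and Pck2 (1.33), Chac1 (0.89) and Gpt2 (0.48) made up the rest.

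Transporters and tRNA synthetases were higher by less. Over 7 transporter genes the median was 0.70, with Slc7a5 (113 and 238 FPKM, 1.06) and its heavy chain Slc3a2 (112 and 232 FPKM, 1.04) past 1 and Slc7a11, the cystine transporter, at 1.63 and 3.08 FPKM (0.63). Over 10 synthetase genes, which join amino acids to their tRNAs, the median was 0.45, from 0.29 for Mars to 0.90 for Wars. None of the synthetases was past 1, and all 10 were highest in 2% HS + exosome.

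**Figure D3:**
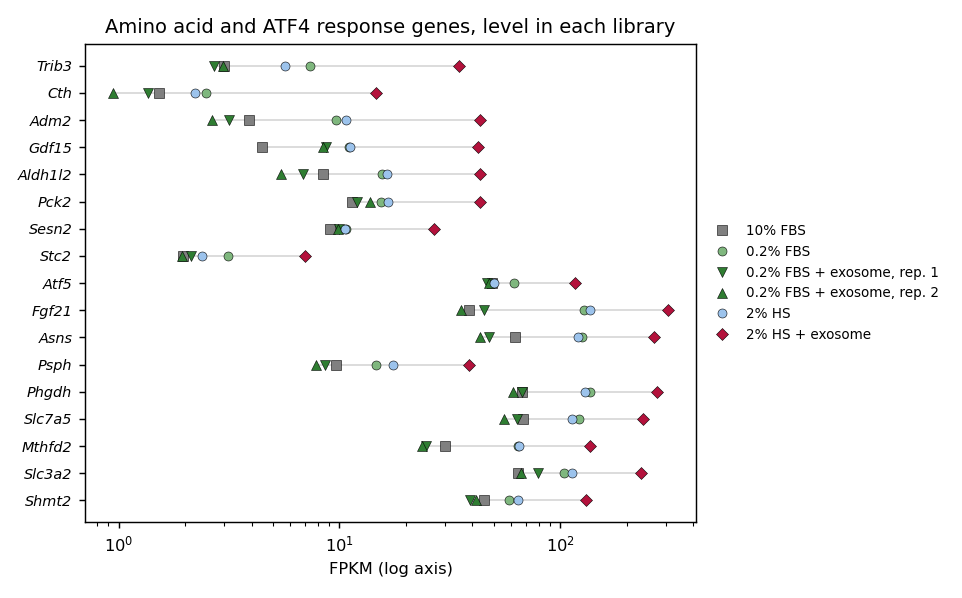
The 17 amino acid and ATF4 response genes past a difference of 1 in 2% HS are ordered by that difference, with the FPKM of each of the 6 libraries on a log axis. The 2% HS + exosome library (red diamonds) is the highest for every gene drawn, the 0.2% FBS + exosome replicates (dark green triangles) lie below 0.2% FBS, and Trib3 runs from 2.71 to 34.9 FPKM.

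Promoter sequences from RefSeq (GRCm38.p6, from 250 bases before to 50 bases after a gene's start) were searched on both strands for the letters of motifs that SREBP2 and ATF4 are known to bind. The ATF4 element with C/EBP, searched as TGATGNAA, was found in 14 of the 38 ATF4-list genes that had a promoter (36.8%), against 2.65% of 8160 members and 4.51% of all 27025 genes with a promoter. The 5 genes with the largest differences among those 14 are shown, with the motif in capitals and the strand it was read on.

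Trib3, chr2:152344028-152344057, plus strand: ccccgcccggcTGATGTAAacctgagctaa
Asns, chr6:7693214-7693243, minus strand: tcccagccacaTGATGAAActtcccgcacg
Fgf21, chr7:45615611-45615640, plus strand: gcctggacggaTGATGCAAtgggggggtct
Pck2, chr14:55540152-55540181, minus strand: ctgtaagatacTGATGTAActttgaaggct
Chac1, chr2:119351038-119351067, minus strand: cctggcaggagTGATGCAAcggcagggaag

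The other genes with a match were Aars, Gars, Herpud1, Iars, Nupr1, Pycr1, Slc1a4, Slc7a11 and Yars, with differences from 0.30 to 0.68. A match is a description of the letters in this window and not a measured binding site. For the sterol list 18 of 25 genes had a promoter. A sterol regulatory element searched as TCACNCCAC was found in 1 of them (5.56%), Hmgcs1, against 1.37% of members and 1.44% of all genes with a promoter. The pentamer CCAAT, bound by NF-Y, was found in 16 (88.9%), against 43.2% of members and 41.1% of all genes with a promoter. The Hmgcs1 window is shown with the element in capitals.

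Hmgcs1, chr13:119690204-119690233, plus strand: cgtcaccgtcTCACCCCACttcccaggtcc

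Beyond the lists above, 17 further genes were lower by over 1 in 2% HS with exosomes, with a median of −1.23. Ndrg4 and Mss51 passed the limma test, the call of Mss51 being lost with 75th percentile scaling or without the trend. Ndrg4 lies at chr8:95676980-95715119 on the plus strand and stood at 42.8 FPKM in 10% FBS, 93.5 in 2% HS, 27.0 in 2% HS + exosome, 48.3 in 0.2% FBS, and 53.5 and 56.8 in the replicates of 0.2% FBS + exosome. The 2% HS library was the highest of the 6 and the 2% HS + exosome library the lowest, from an estimated 10497 and 2665 reads, and Ndrg4 fell by 1.75 on the log2 scale (SE 0.20, adjusted p = 0.0186 in limma). Mss51, a gene of skeletal muscle, stood at 4.94, 11.0, 2.49, 7.49, 3.60 and 2.70 FPKM and fell by 1.79 (SE 0.22, adjusted p = 0.0324 in limma), and it was lower with exosomes in both media.

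Several of the other 15 genes are known from muscle energy metabolism and from differentiation. The brain-type creatine kinase Ckb stood at 11.7 FPKM in 10% FBS, 22.3 in 2% HS, 8.02 in 2% HS + exosome, 20.1 in 0.2% FBS, and 9.91 and 9.44 in the replicates of 0.2% FBS + exosome (−1.37, adjusted p = 0.0504 in limma). Cox7a1, a muscle subunit of cytochrome oxidase, was at 28.5 and 11.4 FPKM in 2% HS (−1.26), the protease genes Cpa1 and Ctrb1 at −1.38 and −1.25, the p53 target Ccng1 at 78.9 and 33.9 FPKM (−1.20), and the tendon factor Scx at 101 and 48.3 FPKM (−1.04). Id2, an inhibitor of myogenic helix-loop-helix factors, was at 8.32 and 3.29 FPKM (−1.12). Serpinb1a (−1.33), Wnt10a (−1.08), Mfsd2a (−1.03) and Nmrk2 (−1.01) were also in this group. With the libraries scaled to the same 75th percentile, 30 of the 32 lower genes stayed under −1, and Nmrk2 had lain nearest that limit. Sprr1a (−1.38), Sprr2k (−1.10), Gpr56 (−1.16) and Ctrb1 differed by over 1 between the 0.2% FBS + exosome replicates as well, and Sprr2k rested on an estimated 107 and 36 reads.

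Beyond the ATF4 list, 22 genes were higher by over 1, with a median of 1.23. P2rx3, an ATP-gated ion channel known from sensory neurons, had the largest difference of all members. It lies at chr2:84998583-85037462 on the minus strand and stood at 0.293 FPKM in 10% FBS, 0.426 in 2% HS, 8.20 in 2% HS + exosome, 1.41 in 0.2% FBS, and 0.305 and 0.429 in the replicates of 0.2% FBS + exosome. The level was 19.2 times that in 2% HS, from an estimated 27 and 450 reads, a difference of 2.69. Cdsn, an adhesion protein of the outer skin, at chr17:35552128-35557180 on the plus strand, stood at 0.830, 1.14, 12.5, 2.09, 0.629 and 0.489 FPKM and rose by 2.66 (SE 0.20, adjusted p = 0.00298 in limma). Akr1b7, an aldo-keto reductase, stood at 0.0485, 0.221, 4.79, 0.620, 0.189 and 0.226 FPKM (2.25), its 2% HS value resting on an estimated 9 reads. Atp2a3, a calcium pump of the endoplasmic reticulum, stood at 0.511, 0.722, 4.48, 0.925, 0.472 and 0.615 FPKM (1.67). P2rx3, Akr1b7, Atp2a3, Dhrs9 and 3425401B19Rik, 5 of the 39 genes past 1, were members only through their level with exosomes, whereas none of the 32 lower genes was a member only through its level without them. In each of P2rx3, Cdsn, Akr1b7 and Atp2a3 the 2% HS + exosome library stood alone, and the 5 other libraries reached at most 2.09 FPKM.

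The other 18 of the 22 genes include enzymes and muscle proteins. Acot2, a mitochondrial acyl-CoA thioesterase, was at 4.93 and 15.1 FPKM in 2% HS (1.44), Cyb5r1 at 79.2 and 186 FPKM (1.22), Phf10 at 54.6 and 119 FPKM (1.12), and Bcat1, which opens the breakdown of branched-chain amino acids, at 2.104 and 5.90 FPKM (1.15). Myh8, the perinatal myosin heavy chain, was at 13.2 and 28.8 FPKM (1.07), and Cox6a2, a muscle subunit of cytochrome oxidase, at 146 and 311 FPKM (1.09). Glrp1 (1.44), Extl1 (1.40), Cfap52 (1.30), Pi15 (1.23), Chil1 (1.05), Apobr (1.11), Dhrs9 (1.06), Pmp22 (1.00) and the interferon-induced Ifit3 (1.03) also belong here. Bglap2 was at 5.15 and 17.2 FPKM (1.56), but it has near-identical neighbours in the genome, and the 0.2% FBS + exosome replicates were at 0.840 and 5.25 FPKM. Acot2 likewise has a close copy, Acot1, so that its reads may be shared.

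The direction of the higher genes differed from that in 0.2% FBS. Of the 39 genes higher by over 1 in 2% HS, 35 had a lower and 2 a higher level with exosomes in both replicates of 0.2% FBS. The 32 lower genes were lower in both replicates for 26 genes and higher in both for 3. Over the 10644 uniquely named members, 2990 were lower and 5814 higher in both replicates. Of the 39 genes, 37 had their highest level of the 6 libraries in 2% HS + exosome, against 1247 of the 10644. That count supports nothing, because the 39 genes were chosen for a high value in that library. A limma test of the difference between the media (2% HS effect minus 0.2% FBS effect) called 121 genes (1.14%) on the higher and 51 (0.479%) on the lower side at an adjusted p under 0.05, with 2121 genes at an unadjusted p under 0.05. Of the 39 genes 33 were called, all on the higher side, and of the 32 genes only Ndrg4. Without the 5 genes that were members only through their level with exosomes, 34 of the 39 remain, of which 31 were lower and 2 higher in both replicates of 0.2% FBS and 29 were called. The calls of P2rx3, Akr1b7, Atp2a3 and 3425401B19Rik support nothing. The 39 genes had been chosen by the 2% HS value that enters this test. With the libraries scaled to the same 75th percentile, 97 genes were called on the higher and 13 on the lower side, among them 106 of these 172, and limma without the trend called 43 and 6. None of the 172 calls was made with values below 1 FPKM raised to 1 or with low genes kept, and 158 of the 172 were made with values raised once the 130 genes with identical replicates were left out.

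Over the 45 amino acid and ATF4 response genes the medians in the 0.2% FBS replicates were −0.54 and −0.57, compared with 0.83 in 2% HS. In both replicates 38 genes were lower and 5 higher, against 2990 and 5814 of the 10644 uniquely named members. For a difference between the media 23 genes were called, all on the higher side, against 1.14% of all members, with the same dependence on the processing. Trib3 differed between the media by 3.55 (SE 0.25, adjusted p = 0.00211), Adm2 by 3.37 (SE 0.26, adjusted p = 0.00211), Fgf21 by 2.82 (SE 0.32, adjusted p = 0.0115) and Asns by 2.58 (SE 0.29, adjusted p = 0.0115) in limma. Ddit3, at 0.12 (adjusted p = 0.898), and Cebpb, at 0.35 (adjusted p = 0.496), were higher with exosomes in both media and had no such call. With 1 control library in each medium, the medium and the single cultures cannot be told apart.

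**Figure D4:**
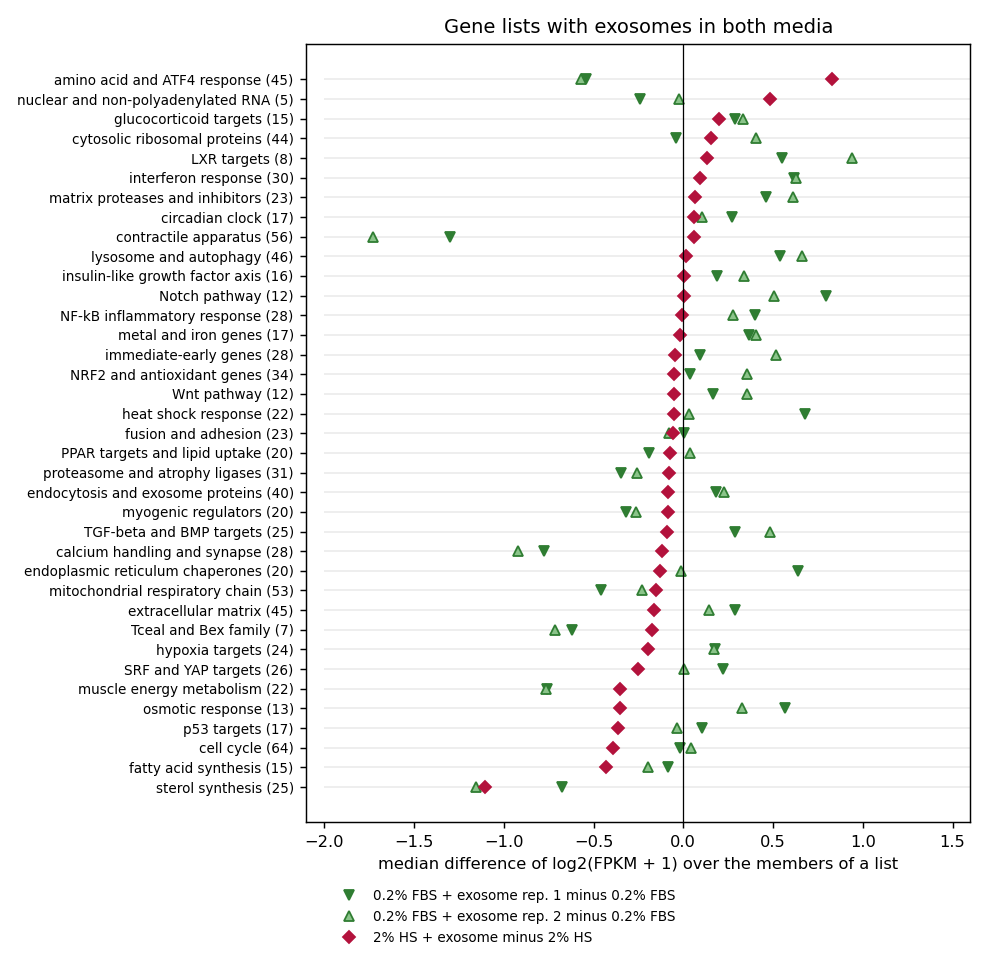
Each row is 1 gene list with its number of members in parentheses, and the x axis gives the median difference of log2(FPKM + 1) over those members with exosomes in 2% HS (red diamonds) and in replicates 1 and 2 of 0.2% FBS (green triangles). The amino acid and ATF4 response lies at 0.83 in 2% HS and at −0.54 and −0.57 in 0.2% FBS, sterol synthesis lies below 0 in all 3, and the contractile apparatus lies at 0.06 in 2% HS and at −1.30 and −1.73 in 0.2% FBS.

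Genes of muscle differentiation lay on both sides in 2% HS. Of the markers that the study follows, Myog, a myogenic factor of early differentiation, stood at 564 FPKM in 2% HS and 720 FPKM in 2% HS + exosome (0.35), and the fusion gene Tmem8c at 987 and 1088 FPKM (0.14). The muscle creatine kinase gene Ckm was at 847 and 675 FPKM (−0.33), and the adult fast myosin Myh1 at 35.8 and 27.4 FPKM (−0.37). Of 56 contractile genes 33 were higher (58.9%, against 41.3% of all members) and 23 lower (41.1%, against 58.7%). Their median was 0.06, and 1 gene was past 1, Myh8 (1.79%, against 0.366% of all members). Embryonic myosin Myh3 stood at 738 FPKM in 10% FBS, 1575 in 2% HS, 1566 in 2% HS + exosome, 1604 in 0.2% FBS, and 713 and 404 in the replicates of 0.2% FBS + exosome (−0.01). Csrp3, a Z-disc protein, stood at 12.5, 45.3, 90.9, 43.4, 9.08 and 4.84 FPKM (0.99), and Myh7, the slow myosin, at 25.9 and 41.0 FPKM in 2% HS (0.64), while the fast-fibre gene Mybpc2 was at 1.89 and 0.737 FPKM (−0.73). Over 20 myogenic regulators the median was −0.09, with Myod1 at 97.2 and 91.0 FPKM (−0.09) and Myf5 at 6.50 and 4.22 FPKM (−0.52). Pax7, a marker of muscle stem cells, was below the limit at 0.126 and 0.194 FPKM, and Cdkn2a was listed at 0 in all 6 libraries. Within the Tceal and Bex family of 7 members, whose Tceal5 and Tceal7 the study follows, none was past 0.5 and the median was −0.17.

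A set of differentiation genes was taken from libraries that the 2% HS pair does not use. The 189 members higher in 0.2% FBS than in 10% FBS by over 1 had a median difference of 0.04 with exosomes in 2% HS, 12 of them over 1 (6.35%, against 0.366% of all members) and 14 under −1 (7.41%, against 0.301%). Most of the genes past 1 belong to lists described above, so these shares are no separate result. Idi1, Cyp51 and Fdps of sterol synthesis are among those under −1. Trib3, Adm2 and Fgf21 of the ATF4 response are among those over 1. The 71 genes lower by over 1 had a median of −0.11, and none was past 1. In the 0.2% FBS + exosome replicates the 189 genes had medians of −1.19 and −1.59, but these values share the 0.2% FBS library that chose the genes. Of the 189 genes 63 were called for a difference between the media, all on the higher side, against 1.14% of all members on that side and 0.479% on the other, and the choice shares that library as well.

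In several other lists most genes lay on 1 side, which is read against the 58.7% of all members that were lower and the 41.3% that were higher. Of 64 cell cycle genes 62 (96.9%) were lower, 8 by over 0.5 (12.5%, against 2.44% of all members) and none by over 1, with a median of −0.39, as in Kif23 (4.17 and 2.46 FPKM), Tk1 (15.2 and 10.1 FPKM) and Ccnb1 (9.88 and 6.45 FPKM). Their medians in 0.2% FBS were −0.02 and 0.04. None of the 64 was called in either limma test. Of 17 p53 targets 14 (82.4%) were lower, with a median of −0.36. Of these, 4 were lower by over 0.5 (23.5%, against 2.44% of all members) and 1 by over 1, Ccng1 (5.88%, against 0.301%). The p53 target medians in the 0.2% FBS replicates were 0.10 and −0.03. Of 44 cytosolic ribosomal protein genes 43 (97.7%) were higher, with a median of 0.16 and none past 0.5. Close copies of these genes make their single values uncertain. Their medians in the 0.2% FBS replicates were −0.04 and 0.40, and the replicates themselves differed by a median of 0.43. Of 53 respiratory chain genes 48 (90.6%) were lower, with a median of −0.15. Their medians in the 0.2% FBS replicates were −0.46 and −0.23, and these differed by a median of 0.27. For both lists the replicates thus differed by more than the 2% HS libraries. Of 22 genes of muscle energy metabolism 15 were lower (68.2%), with a median of −0.35. In this list 8 genes were lower by over 0.5 (36.4%, against 2.44% of all members) and 3 higher by over 0.5 (13.6%, against 2.14%). Past 1 were Ckb and Cox7a1 on the lower side (9.09%, against 0.301%) and Cox6a2 on the higher side (4.55%, against 0.366%). Myoglobin (Mb) stood at 222 and 133 FPKM (−0.74). The 2% HS medians of these lists kept their sign when the libraries were scaled to the same 75th percentile. Of 29 listed nuclear and non-polyadenylated RNA genes only 8 had an entry among the deposited values, and 5 were members. Of these 5 members, 4 were higher (80%, against 41.3% of all members) and 2 were higher by over 0.5 (40%, against 2.14%). Their median was 0.49 in 2% HS, and −0.24 and −0.02 in the 0.2% FBS replicates. The part of such RNA in the results was not tested.

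**Figure D5:**
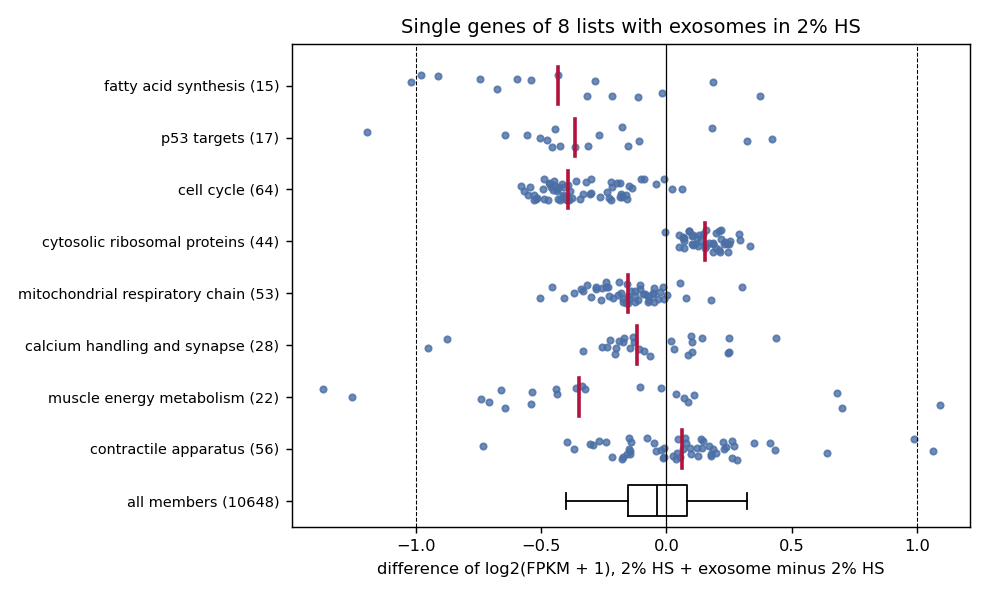
Each point is 1 gene of 8 lists, placed by its difference of log2(FPKM + 1) with exosomes in 2% HS on the x axis, with red bars at the list medians, and the box below shows the quartiles of all 10648 genes with whiskers at their 5th and 95th percentiles. The 64 cell cycle genes lie between −0.58 and 0.06, whereas muscle energy metabolism runs from −1.37 for Ckb to 1.09 for Cox6a2.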

How the data were processed

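RNA was extracted with a miRNeasy Micro Kit per the labels (the study's methods name the RNeasy Micro Kit), made into TruSeq stranded mRNA libraries and sequenced from a single end over 75 bases. The authors trimmed with cutadapt 1.9.1, mapped to mm10 with TopHat2 2.1.0 and deposited FPKM values from Cufflinks, which divide by transcript length and depth. The strand setting is not given in the sources used here. From these deposited FPKM values the log2 differences were computed here with a pseudocount of 1 in Python 3.11.15 (pandas 2.3.3, numpy 2.4.6).

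limma 3.58.1 (R 4.3.3), with a mean-variance trend and 1 mean per condition over all 6 libraries, gave adjusted p-values (Benjamini-Hochberg over 10648 members, threshold 0.05). The fit was tested on simulated data. Nothing says that the libraries of a condition came from separate cultures, so p-values measure only the spread between these libraries, which may be technical.

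Reads were estimated from 2442 genes with 1 annotated transcript over 1000 bases, assuming fragments of 200 bases. Between 75.5% and 79.2% of low values lay within 0.1 of a whole read, against 20% if spread evenly. GENCODE vM21 positions were found for 10199 members, and 5 member entries repeat a name.

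Named genes were the 15 largest differences on each side, genes the study names, up to 4 members of each list with the largest differences, its highest member and any past 1, and the 10 smallest p-values of each limma test. Other genes named were chosen after their values were seen. Members and lists were chosen with earlier results of these data known. Alternatives were a pseudocount of 0.1, a floor of 1 FPKM, scaling to the same 75th percentile, no filter, a minimum of 5 FPKM, limma without the trend, and limma with 1 exosome effect common to both media. A few genes are counted in their lists but not reported here by name.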

Additional observations from a re-analysis of the deposited data

Results flagged for a closer look

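The exosome effect in 2% HS minus that in 0.2% FBS, on the log2(FPKM + 1) scale, had an adjusted p under 0.05 in limma for the 44 named genes below, each with that difference. In 2% HS the effect is 1 library against 1, and in 0.2% FBS it is the mean of replicates 1 and 2 against 1 library. The sign was the same with either replicate left out for each of the 44 genes, as a value with no test. None of the 44 was called when values below 1 FPKM were raised to 1 or when low genes were kept. P2rx3, Akr1b7 and Atp2a3 were members only through their level in 2% HS + exosome, so that their call supports nothing.

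Of the amino acid and ATF4 response, Trib3 (3.55), Adm2 (3.37), Cth (2.99), Fgf21 (2.82), Asns (2.58), Aldh1l2 (2.57), Mthfd2 (2.43), Gdf15 (2.19), Phgdh (2.15), Slc7a5 (2.08), Psph (1.87), Stc2 (1.67), Pck2 (1.59), Atf5 (1.58), Shmt2 (1.55), Slc7a11 (1.47) and Sesn2 (1.37) were on the higher side in 2% HS. Each of them was higher with exosomes in 2% HS and lower in both replicates of 0.2% FBS.

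Of the muscle genes, Csrp3 (3.52), Cox6a2 (3.27), Myh8 (3.24), Myh4 (2.40) and Myh7 (2.05) were on the higher side, and so were Tceal7 (2.87), 8430408G22Rik (2.57), Tceal5 (2.00), Chil1 (3.15), Ces2c (3.02) and Spink4 (1.94), which the study names. Tceal7 and Spink4 were lower with exosomes in both media and by less in 2% HS, whereas the other genes of this paragraph were higher in 2% HS and lower in both replicates of 0.2% FBS. The study picked Tceal5 and Tceal7 from genes lowered by exosomes in these data, and the 0.2% FBS values enter this test. Their calls were favoured by that choice and support nothing. The same limit holds for any other gene that the study names for a fall with exosomes.

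Further genes on the higher side were Cdsn (3.64), P2rx3 (3.51), Akr1b7 (2.67), Atf3 (2.65), Glrp1 (2.23), Igf2 (2.15), Cdkn1c (2.13), Extl1 (2.03), Atp2a3 (1.99), Acot2 (1.77), Ptgs2 (1.54) and Nfil3 (1.35). On the lower side were Kbtbd11 (−2.48), Ndrg4 (−1.94), Myf5 (−1.48) and Tapbp (−1.38), which were lower with exosomes in 2% HS and higher in both replicates of 0.2% FBS.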

How the results depend on the processing

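No named gene past a difference of 1 changed side under any alternative run. Scaling to the same 75th percentile moved the median over all members from −0.036 to −0.007. The sign of a gene that near 0, such as Myh3 (−0.008), therefore depends on the scaling. Past a difference of 1, the 32 lower and 39 higher genes became 58 and 74 with a pseudocount of 0.1, and 54 and 70 with values below 1 FPKM raised to 1, and all of the original genes kept their call under both. Scaling to the same 75th percentile kept 39 higher and 30 lower genes past 1, and it brought Scd2 to −0.986. The limma counts moved more. With values below 1 FPKM raised to 1 and with no filter on low values, 0 genes were called on either side in 2% HS (529 of 10648 and 1020 of 15497 at an unadjusted p under 0.05) and 0 for the difference between media (1681 and 2074). Leaving out genes with identical 0.2% FBS + exosome replicates, chosen after seeing the data, gave 2 lower and 4 higher calls in 2% HS and 78 lower and 118 higher between media with values raised, and 0 with no filter in either test (679 and 1984 at an unadjusted p under 0.05), where the cause was not tested. In 2% HS, 0 were called on either side with 1 exosome effect common to both media (715 at an unadjusted p under 0.05). Scaling gave 1 lower call in 2% HS and 13 lower calls between media, limma without the trend 1 lower in 2% HS and 6 lower and 43 higher between media, and a minimum of 5 FPKM 5 higher in 2% HS. The medians over the 189 and 71 differentiation genes kept their signs under each alternative. The count of calls between media could not be fitted without either 0.2% FBS + exosome replicate, since no residual degree of freedom is left. No paired analysis was possible because each 2% HS group has 1 library, so the groups compared share fewer than 2 replicate numbers. Depth was only estimated, so no counting interval was computed.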
